A study of Homo sapiens with 6 samples.

Results

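MYC, CCND1 and a group of other genes that respond to or regulate Wnt signalling were examined in MB157 cells, a long-established human line from a triple-negative breast cancer. The genes were MYC, CCND1, SFRP1, CD44, AMER1, AXIN2, LEF1 and CTNNB1, with LTO1 and CD44-AS1, which lie opposite CCND1 and CD44. Every row whose exons overlapped one of them on the other strand was added, which gave only LEF1-AS1, opposite LEF1. In all these are 11 of the 57209 gene rows of each table. The genes were chosen by their counts in the 2 groups, read from these same libraries, so that their differences between the groups are descriptions and carry no test.

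The series holds 6 RNA-seq libraries, 3 per group. Cells of both groups carried the Cas9 nuclease according to the titles and grew in puromycin. The controls received a control sgRNA and the other cells a guide RNA that targets SOX9, which encodes an HMG-box transcription factor, and after 4 days the top 50% of sgRNA-expressing cells were sorted. The question was which transcripts change once SOX9 is targeted. The titles name Cas9, but the series text speaks of stable SOX9 expression. The labels call the replicates technical, so that p-values measure only the spread between these libraries. Guide sequences and clonality were not analysed here.

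In canonical Wnt signalling a secreted Wnt ligand binds a Frizzled receptor and an LRP co-receptor, and this stops a destruction complex from degrading β-catenin. β-catenin then enters the nucleus, binds TCF/LEF factors at DNA and activates target genes. MYC, CCND1, CD44, AXIN2 and LEF1 are widely used as readouts of that pathway, and each also answers to other signals. In triple-negative breast cancer MYC and CD44 are known for their links to growth and to stem-like cells.

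Totals ran from 776125 to 1018854 counts per library. The groups were apart in the number of genes with any count, at 18326 to 18818 in control and 20207 to 21082 in SOX9 sgRNA libraries. They were also apart in the TMM scaling factor, which adjusts for composition, at 0.936 to 0.940 and 1.05 to 1.08. Every CPM below rests on that factor. Results with library totals instead are given further on, and why the groups differ in this was not tested. SOX9 itself had 38, 52 and 44 counts in the control libraries and 37, 39 and 60 in the SOX9 sgRNA libraries, so the targeted gene's counts did not separate the groups. Cas9 cuts can disrupt a protein without lowering its transcript, but whether that applies here was not tested, and these counts do not check the labels. Of the breast epithelial genes, EPCAM, KRT5, KRT8, KRT18 and KRT19 were all detected in every library, while ESR1 had 0 to 7 counts and PGR 3 to 7. ERBB2 had 141 to 213 counts. Of 17 such markers 9 were tested, with 3 lower and 0 higher, where 6.02% and 2.99% of all genes were, and the median log2 fold change was -0.08. In edgeR's fit VIM fell by 1.61 (SE 0.17, adjusted p = 8.26e-12), KRT19 by 0.74 (SE 0.13, adjusted p = 1.83e-05) and KRT7 by 0.97 (SE 0.29, adjusted p = 0.018) in log2 terms. KRT7 lost its call in 4 of 11 further fits, those with library totals (-0.79) and without control library 1 (-0.86), SOX9 sgRNA library 1 (-0.96) or SOX9 sgRNA library 3 (-0.96). Whether these markers bear on the genes examined was not tested. For 13 markers of immune, endothelial and stromal cells the summed level was 30.5 to 48.9 CPM (counts scaled to the library's size) in control and 51.6 to 79.5 CPM in SOX9 sgRNA libraries. CD3E, LYZ, VWF, CDH5 and LUM had no count in any library and PTPRC had 1. The part of these markers in the results was not tested. Counts were kept apart by strand, and 80.9% to 81.5% of each library's counts fell on rows whose exons overlap a gene of the opposite strand. In 815 pairs of a protein-coding and an antisense gene whose exons overlap only each other, with at least 100 counts per pair, the antisense row was the higher in 644 and the coding row in 169. These coding rows summed to 105771 counts and the antisense rows to 938106, with VIM at 501 control counts against 14715 for VIM-AS1. It is therefore in doubt whether the authors' strand setting counts the sense strand of this kit, and the sources used here do not settle it. Should the setting be the opposite one, every row would hold RNA from the strand opposite the named gene. That includes the row of SOX9, and those of MYC, SFRP1 and AMER1, which have no exon opposite. Each level, rank and difference given here is that of a row in the deposited tables and cannot be taken as that of the gene's mRNA. In bulk RNA, fewer cells that express a gene and less RNA per cell cannot be told apart either.

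Promoter sequences were looked up as a description. Several of the genes moved together, but they were chosen with these differences known. RefSeq promoters (GRCh38.p14, 250 bases before to 50 after the start) were found for 5 of the 10 listed genes, namely CD44, LTO1, AMER1, CTNNB1 and LEF1. The promoters of the 3 genes that were lower with the SOX9 sgRNA are printed 5′ to 3′ on the gene's strand, with capitals for the GC box (CCGCCC) and the CCAAT box (CCAAT) on either strand. They lie at chr11:35138921-35139220 (plus strand) for CD44, chr11:69675304-69675603 (minus strand) for LTO1 and chrX:64205659-64205958 (minus strand) for AMER1.
CD44: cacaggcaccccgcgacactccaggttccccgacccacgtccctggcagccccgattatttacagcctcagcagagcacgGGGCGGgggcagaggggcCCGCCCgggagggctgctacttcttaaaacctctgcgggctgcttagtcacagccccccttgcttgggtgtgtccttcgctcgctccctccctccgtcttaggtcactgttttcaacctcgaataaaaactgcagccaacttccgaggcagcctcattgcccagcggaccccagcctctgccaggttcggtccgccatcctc
LTO1: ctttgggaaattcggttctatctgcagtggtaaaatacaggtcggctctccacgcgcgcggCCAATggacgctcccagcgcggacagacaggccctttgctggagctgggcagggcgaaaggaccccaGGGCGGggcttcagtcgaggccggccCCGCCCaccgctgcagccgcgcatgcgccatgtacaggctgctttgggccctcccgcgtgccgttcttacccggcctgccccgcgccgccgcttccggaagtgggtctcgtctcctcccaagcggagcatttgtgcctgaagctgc
AMER1: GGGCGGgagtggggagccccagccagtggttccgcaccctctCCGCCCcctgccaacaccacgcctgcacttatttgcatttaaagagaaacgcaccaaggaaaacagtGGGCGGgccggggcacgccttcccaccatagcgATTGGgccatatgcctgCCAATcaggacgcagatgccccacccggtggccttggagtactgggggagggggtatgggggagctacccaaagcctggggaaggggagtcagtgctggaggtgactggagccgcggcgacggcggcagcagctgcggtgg
All 5 promoters held a GC box, with 3 matches each in AMER1 and CTNNB1 and 2 each in CD44, LTO1 and LEF1, which 15786 of 35116 promoters of this length also hold. A CCAAT box was found 2 times in AMER1 and 1 time each in LTO1 and LEF1, and in 34.6% of all promoters. The TCF/LEF letters CTTTGA and CTTTGT, searched on both strands, were in none of the 5 and in 12.9% and 16.1% of all promoters. CTTTGT read on the other strand is ACAAAG, which SOX factors also bind. The SOX letters AACAAT (10.1% of all promoters) and the E-box CACGTG bound by MYC (7.26%) were absent from these 5 windows too. That says only that these letters are not in these windows.

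With the SOX9 sgRNA, the rows of MYC, CCND1, LTO1, SFRP1, CD44, CD44-AS1 and AMER1 were lower, and those of AXIN2, CTNNB1 and LEF1-AS1 showed no detectable difference. LEF1 held too few counts to be tested. Lower here means an adjusted p below 0.05 in edgeR's quasi-likelihood fit over all 7959 genes that passed the filter on low counts. Of the 11 rows 10 passed that filter, 7 were lower and 0 higher, where 6.02% of all genes tested were lower and 2.99% higher. At 2-fold or more 4 of the 10 were lower, where 1.72% of all genes were. For 7 rows CPM was below every control library in every SOX9 sgRNA library, where 12.8% of all genes showed that. The median log2 fold change (SOX9 sgRNA over control) was -0.78 over the 10 rows and 0.01 over all genes tested. Since the genes were chosen with these values known, the counts describe the choice.

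**Figure D1:**
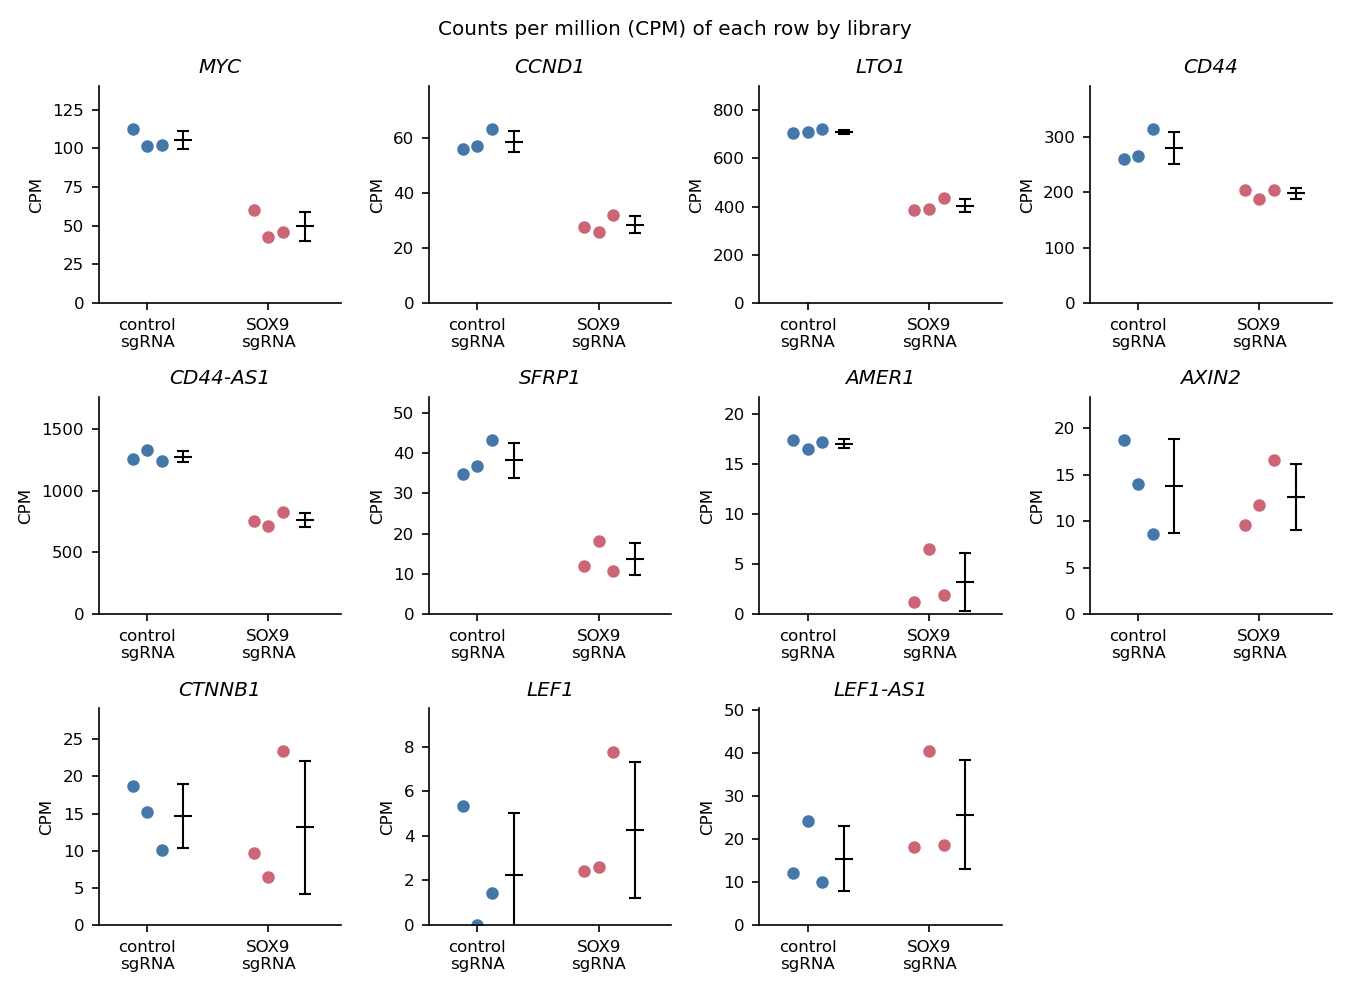
CPM of each of the 11 rows (vertical axis, linear from 0, own scale per panel) in the 3 control sgRNA and the 3 SOX9 sgRNA libraries, 1 point per library, with the mean and SD (n = 3 each, lower bar of LEF1 cut at 0). The groups are apart for MYC, CCND1, LTO1, CD44, CD44-AS1, SFRP1 and AMER1 and overlap for AXIN2, CTNNB1, LEF1 and LEF1-AS1.

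MYC encodes a basic helix-loop-helix transcription factor that drives growth and ribosome production and is a classical target of β-catenin. Its row (ENSG00000136997, chromosome 8, 128747680 to 128753674, plus strand, GRCh37) held 84, 80 and 71 counts in control libraries 1 to 3 and 50, 33 and 47 in SOX9 sgRNA libraries 1 to 3. Scaled, this came to 105 ± 5.96 CPM in control and 49.6 ± 9.29 CPM with the SOX9 sgRNA (SD, n = 3 each). The highest SOX9 sgRNA library, at 60.2 CPM, lay below the lowest control library, at 101.6 CPM. The log2 fold change was -1.08 (SE 0.23), or 2.12-fold lower, and it ran from -1.25 to -0.90 over all other settings and left-out libraries. No exon of another gene overlapped MYC on the other strand.

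CCND1 encodes cyclin D1, which activates CDK4 and CDK6 at the start of the cell cycle. Its row (ENSG00000110092, chromosome 11, 69455855 to 69469242, plus strand) held 42, 45 and 44 control counts and 23, 20 and 33 SOX9 sgRNA counts. The level was 58.8 ± 3.88 CPM in control and 28.6 ± 3.16 CPM with the SOX9 sgRNA (SD, n = 3 each), and the groups did not overlap. In log2 terms the fold change was -1.03 (SE 0.29), and without SOX9 sgRNA library 2 it was -0.97 and no longer past the threshold.

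LTO1, which takes part in the maturation of an iron-sulphur protein needed for ribosome recycling, runs toward CCND1 from the other side. The last exons of the 2 genes share 498 bp, and LTO1 (ENSG00000149716, minus strand) spans 69467844 to 69490184. Its row held far more counts, with 528, 558 and 501 in control libraries and 319, 301 and 447 in SOX9 sgRNA libraries. The level went from 711 ± 8.06 to 404 ± 27.6 CPM (SD, n = 3 each), with the lowest control at 705 CPM and the highest SOX9 sgRNA library at 435 CPM. This gave a log2 fold change of -0.81 (SE 0.095), which the fits without 1 library kept between -0.88 and -0.79.

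The rows of the pair kept nearly the same proportion in every library. Counts named for CCND1 were 7.37% (exact 95% binomial interval 5.36% to 9.83%), 7.46% and 8.07% of the pair's counts in control libraries 1 to 3. They were 6.73%, 6.23% and 6.88% in SOX9 sgRNA libraries 1 to 3, each below the controls but within the counting intervals of them. The interval was 4.31% to 9.92% in SOX9 sgRNA library 1. Intervals cover counting error only. Group means were 7.63% ± 0.383 and 6.61% ± 0.337 (SD, n = 3 each).

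CD44 encodes the cell-surface receptor for hyaluronan, a matrix sugar polymer, and marks stem-like cells in breast cancer. Its row (ENSG00000026508, chromosome 11, 35160417 to 35253949, plus strand) held 195, 209 and 218 control counts and 169, 144 and 210 SOX9 sgRNA counts. The raw counts of the groups overlapped through SOX9 sgRNA library 3, but CPM did not, at 260 to 313 against 187 to 204. CD44 had a log2 fold change of -0.49 (SE 0.13). It was -0.31 when libraries were scaled by their totals and -0.41 without control library 3, and was past the threshold in neither.

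CD44-AS1 is annotated as an antisense RNA inside CD44 (ENSG00000255443, 35231890 to 35236532, minus strand) and shares 84 bp of exon with it. It held 943, 1046 and 864 control counts and 628, 550 and 849 SOX9 sgRNA counts. The level went from 1276 ± 45.6 to 766 ± 56.4 CPM (SD, n = 3 each), with no overlap of the groups. Its log2 fold change was -0.74 (SE 0.080). Every other setting and left-out library kept it between -0.80 and -0.55.

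For this pair the proportion ran the other way. Counts named for CD44 were 17.1%, 16.7% and 20.1% of the pair's counts in the control libraries and 21.2%, 20.7% and 19.8% in the SOX9 sgRNA libraries. The exact 95% intervals were 15.0% to 19.5% in control library 1 and 18.4% to 24.2% in SOX9 sgRNA library 1, and the groups overlapped. The log2 fold change was further from 0 for CD44-AS1 than for CD44, and the difference between them was not tested.

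**Figure D2:**
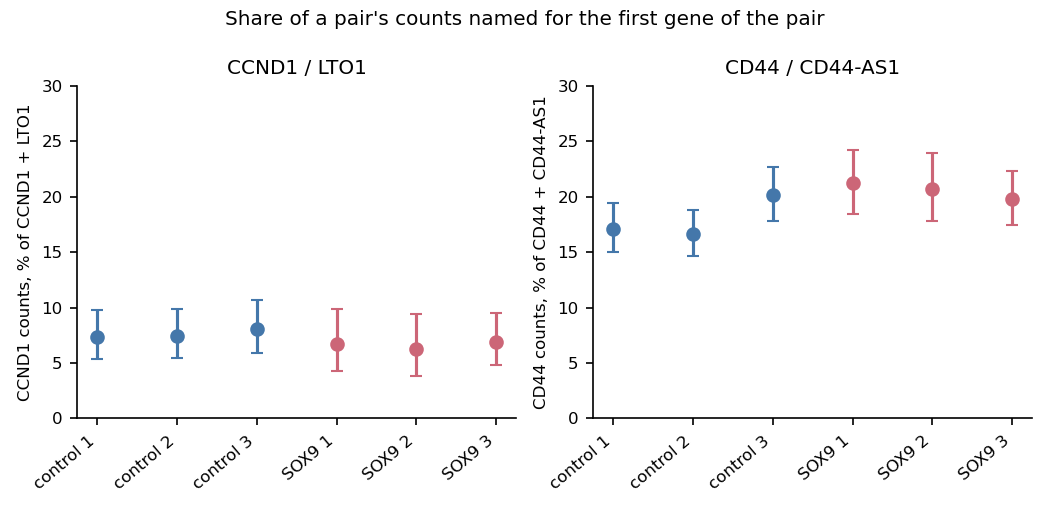
Counts named for CCND1 as a percentage of CCND1 plus LTO1 counts (left) and counts named for CD44 as a percentage of CD44 plus CD44-AS1 counts (right), 1 point per library with its exact 95% binomial interval. The CCND1 share lies between 6.23% and 8.07% and the CD44 share between 16.7% and 21.2%.

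SFRP1 encodes a secreted protein that binds Wnt ligands and damps the pathway. Its row (ENSG00000104332, chromosome 8, 41119481 to 41167016, minus strand) held 26, 29 and 30 control counts and 10, 14 and 11 SOX9 sgRNA counts. In CPM this was 38.2 ± 4.38 against 13.6 ± 3.99 (SD, n = 3 each), and the groups were apart by raw counts as well as by CPM. The log2 fold change was -1.49 (SE 0.38), or 2.82-fold lower. No exon lay opposite SFRP1.

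AMER1 encodes a membrane-bound scaffold that helps the destruction complex hold β-catenin down. Its row (ENSG00000184675, chromosome X, 63404997 to 63425624, minus strand) held 13, 13 and 12 control counts and 1, 5 and 2 SOX9 sgRNA counts. The control libraries were close together, at 16.5 to 17.4 CPM, and the SOX9 sgRNA libraries spread from 1.20 to 6.50 CPM. The log2 fold change of -2.41 (SE 0.73) was the furthest from 0 among the 10 tested rows and rested on 8 SOX9 sgRNA counts in all. It was past the threshold in only 1 of 6 fits without a library, that without SOX9 sgRNA library 2 (-3.29), while the other 5 gave -2.44 to -2.05. With the replicate number as a block it was -2.45 and not past the threshold.

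AXIN2 encodes a scaffold of the destruction complex and is the Wnt target most often read as feedback. Its row (ENSG00000168646, chromosome 17, 63524681 to 63557765, minus strand) held 14, 11 and 6 control counts and 8, 9 and 17 SOX9 sgRNA counts, and the groups overlapped. The log2 fold change was -0.11 (SE 0.53), with the other sign in 3 of 10 further fits, up to 0.15 without control library 1. ENSG00000266076 shares 1316 bp of exon with AXIN2 on the same strand and held 24 control counts and 33 SOX9 sgRNA counts, and 1 fragment can count for both. With so few counts and an SE of 0.53, differences well beyond the size of the SE could also go undetected.

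CTNNB1 encodes β-catenin, which is controlled mainly at the protein level. Its row (ENSG00000168036, chromosome 3, 41236328 to 41301587, plus strand) held 14, 12 and 7 control counts and 8, 5 and 24 SOX9 sgRNA counts. SOX9 sgRNA library 3 was the highest of all 6 and the other SOX9 sgRNA libraries were the lowest in CPM. The log2 fold change was -0.11 (SE 0.52), with the other sign in 4 of 10 further fits. It was -0.85 without SOX9 sgRNA library 3, still not past the threshold.

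LEF1 encodes a DNA-binding partner of β-catenin. Its row (ENSG00000138795, chromosome 4, 108968701 to 109090112, minus strand) held 4, 0 and 1 control counts and 2, 2 and 8 SOX9 sgRNA counts and did not pass the filter. LEF1-AS1, a noncoding RNA that starts opposite the LEF1 start (ENSG00000232021, plus strand, 109088681 to 109177992, 279 bp of shared exon), held 9, 19 and 7 control counts and 15, 31 and 19 SOX9 sgRNA counts. Its log2 fold change was 0.69 (SE 0.43), with values from 0.23 to 1.17 when 1 library was left out, and it did not pass the threshold. The groups overlapped for each of these rows.

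**Figure D3:**
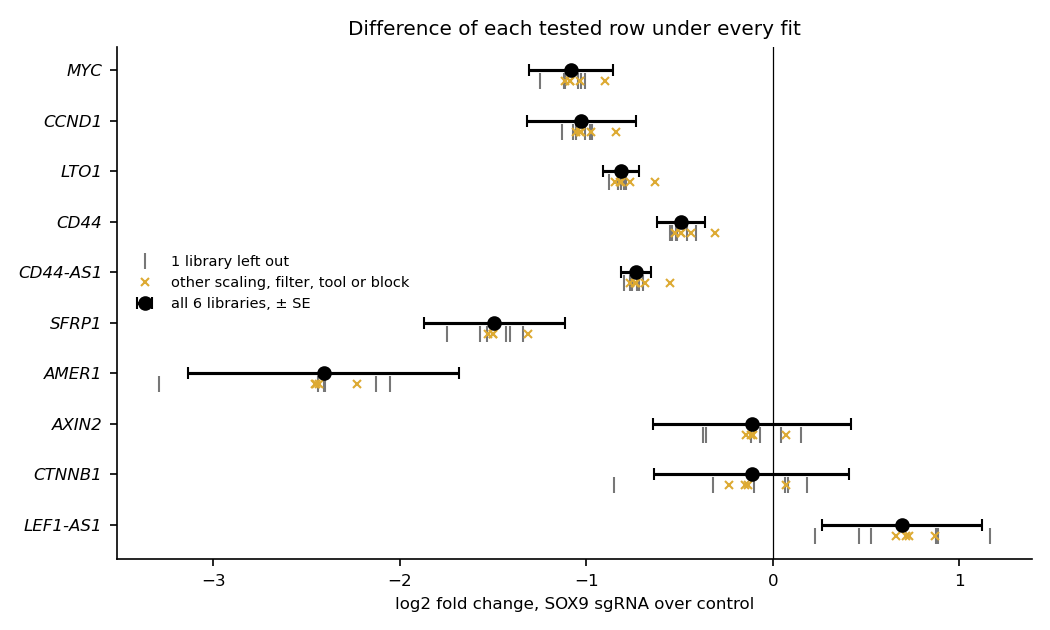
Log2 fold change (horizontal axis, SOX9 sgRNA over control) of the 10 tested rows with all 6 libraries (black, with SE), without 1 library (grey bars) and under another scaling, filter, tool or a replicate block (yellow crosses). The 7 lower rows stay below 0 in every fit, while AXIN2 and CTNNB1 fall on either side of 0.

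Levels were compared between rows as CPM per kb of exon, and with the strand in doubt they rank rows, not mRNAs. In control libraries CD44-AS1 was highest at 2175 ± 77.7, above 99.2% of tested genes, and LTO1 followed at 90.3 ± 1.02. MYC stood at 35.1 ± 1.99, CD44 at 27.8 ± 2.91, CCND1 at 12.2 ± 0.803 and SFRP1 at 8.04 ± 0.921 CPM per kb (SD, n = 3 each), and no neighbours among these 6 overlapped between libraries. LEF1-AS1 (3.21), AXIN2 (2.65), CTNNB1 (2.22) and AMER1 (2.02) followed, and their libraries overlapped except for those of LEF1-AS1 and AMER1. LEF1 was lowest at 0.421 CPM per kb. MYC's level was above that of 73.6% of tested genes and CCND1's above 53.8%.

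With the SOX9 sgRNA the order was changed in a few places. CD44, at 19.7 ± 0.967, stood above MYC, at 16.6 ± 3.10 CPM per kb, though their libraries overlapped. CCND1 (5.92) overlapped LEF1-AS1 (5.34), and SFRP1 (2.87) overlapped AXIN2 (2.43) and CTNNB1 (1.99). AMER1, at 0.381 CPM per kb, was lowest and overlapped LEF1, at 0.796.

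The other genes of the Wnt pathway, listed by role and holding none of the genes above, showed few differences. Of 120 genes in 6 lists 36 were tested, 1 was lower and 0 higher in edgeR's fit, against 6.02% and 2.99% of all genes, with a median log2 fold change of 0.02. At an unadjusted p below 0.05 there were 2 lower and 6 higher, where 902 and 730 of all 7959 genes tested were. DESeq2 called 0 of the 36 in either direction, where it called 343 of all 7959 genes lower and 130 higher. Much of the pathway was scarcely counted, with the rows of 40 of the 120 genes under 10 counts over the 6 libraries. With the strand in doubt, neither these low counts nor the few differences can be taken as those of Wnt mRNAs.

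Of the ligands and secretion genes only WNT2B and WNT4 were tested. WNT2B, a canonical ligand, stood at 62.8 ± 12.1 CPM in control and 93.8 ± 12.7 CPM with the SOX9 sgRNA, a difference of 0.59 in log2 terms (SE 0.22, edgeR adjusted p = 0.091). Of the receptors and R-spondin genes 4 of 25 were tested, and FZD6 gave 0.68 (SE 0.33) and RYK -0.10 (SE 0.35), neither past the threshold. Among transducers and destruction complex genes 10 of 18 were tested and none passed, with APC2 at 0.21 (past the threshold with library totals, at 0.40) and USP34, a deubiquitinase acting on axin, at 0.46 (SE 0.17, edgeR adjusted p = 0.080). Of the TCF/LEF nuclear genes 12 of 18 were tested and none passed. TCF7, a TCF factor that is itself a Wnt target, had 44, 36 and 63 control counts and 82, 83 and 90 SOX9 sgRNA counts (0.60, SE 0.23, edgeR adjusted p = 0.090). BCL9L, a β-catenin cofactor, gave 0.24 (SE 0.26). WNT2B, USP34 and TCF7 passed the threshold with libraries scaled by totals (0.77, 0.64 and 0.78) and with the stricter filter (0.64, 0.51 and 0.65). In no such fit was a Wnt gene of these lists lower. Each shares exon with a gene on the other strand. The opposite rows gave 0.28 (SE 0.22) for ST7L at WNT2B, -0.005 (SE 0.099) for AHSA2P at USP34 and -0.24 (SE 0.51) for SKP1 at TCF7.

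In the list of secreted antagonists only KREMEN2 was tested, which encodes a DKK co-receptor and not a secreted protein. It gave 0.82 (SE 0.34, edgeR adjusted p = 0.12), and it passed the threshold without control library 2 (1.37) and with library totals (1.01). Of 30 other Wnt targets 8 were tested. EPHB3, a receptor tyrosine kinase of intestinal crypts, stood at 50.5 ± 14.1 CPM in control and 26.3 ± 7.55 CPM with the SOX9 sgRNA. It fell by 0.92 (SE 0.31, edgeR adjusted p = 0.0499). That call was lost in 9 of 11 further fits, with values from -1.14 to -0.74. SOX4 gave -0.61 (SE 0.25, edgeR adjusted p = 0.13) and passed the threshold only without control library 3 (-0.82) and JUN 0.06 (SE 0.40).

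Read through the row on the other strand, where exactly 1 gene overlapped, 16 of 24 such Wnt genes were tested, with 2 lower and 1 higher, where 8.3% of such rows were lower and 3.4% higher over all genes. The row opposite BIRC5, a Wnt target that encodes survivin, is ENSG00000268310. With 4577, 4807 and 4235 control counts and 3448, 3195 and 3950 SOX9 sgRNA counts it fell by 0.59 in log2 terms (SE 0.056, edgeR adjusted p = 1.63e-13), beside -0.43 (SE 0.34) for the row of BIRC5. PKMYT1, a kinase that restrains CDK1, lies opposite KREMEN2 and also opposite PAQR4, and fell by 0.66 (SE 0.097, edgeR adjusted p = 4.05e-07). ENSG00000272267, opposite the tankyrase gene TNKS, rose by 0.57 (SE 0.17, edgeR adjusted p = 0.019), and lost its call in 5 of 11 further fits, with values down to 0.46 without control library 1.

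Genes known as targets of MYC lay mostly below 0. Of 30 listed 22 were tested, and 4 were lower and 0 higher in edgeR's fit. At an unadjusted p below 0.05 there were 9 lower and 0 higher, where 902 and 730 of all 7959 genes tested were. DESeq2 called 3 lower and 0 higher, where it called 343 and 130 of all 7959 genes. In edgeR's fit 18.2% were thus lower, against 6.02% of all genes. The list was chosen with earlier results of these data known, so that these shares are a description and carry no test. The median log2 fold change was -0.41, and 19 of the 22 lay below 0, against 49.1% of all genes tested. With library totals the median was -0.22 and that of all genes 0.19.

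PTMA, which encodes the abundant nuclear protein prothymosin alpha, held 1341, 1338 and 1108 control counts and 805, 857 and 1034 SOX9 sgRNA counts. The mean was 1694 ± 98.7 CPM in control and 1030.0 ± 74.9 CPM with the SOX9 sgRNA, and PTMA fell by 0.72 in log2 terms (SE 0.075, edgeR adjusted p = 6.72e-12). PTMA has many near-identical pseudogenes, so its counts are uncertain. TFRC, the transferrin receptor gene, fell by 1.26 (SE 0.31, edgeR adjusted p = 0.0030), with 56, 26 and 62 control counts and 24, 15 and 33 SOX9 sgRNA counts, and lost its call without control library 3 (-0.99). HSPE1, a mitochondrial co-chaperone gene, fell by 0.51 (SE 0.10, edgeR adjusted p = 0.00018). It lies head to head with HSPD1, with 281 bp of shared exon, and the HSPD1 row gave -0.02 (SE 0.27). NOLC1, a nucleolar protein gene, fell by 0.92 (SE 0.29, edgeR adjusted p = 0.028) and lost its call in 6 of 11 further fits. Opposite PA2G4, a growth regulator gene, ENSG00000257553 fell by 0.38 (SE 0.083, edgeR adjusted p = 0.00079), a call lost with library totals (-0.19). Among 11 tested rows opposite MYC targets, 2 were lower, the other being HSPE1 itself, and 0 higher, where 8.3% of all such rows were lower and 3.4% higher.

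**Figure D4:**
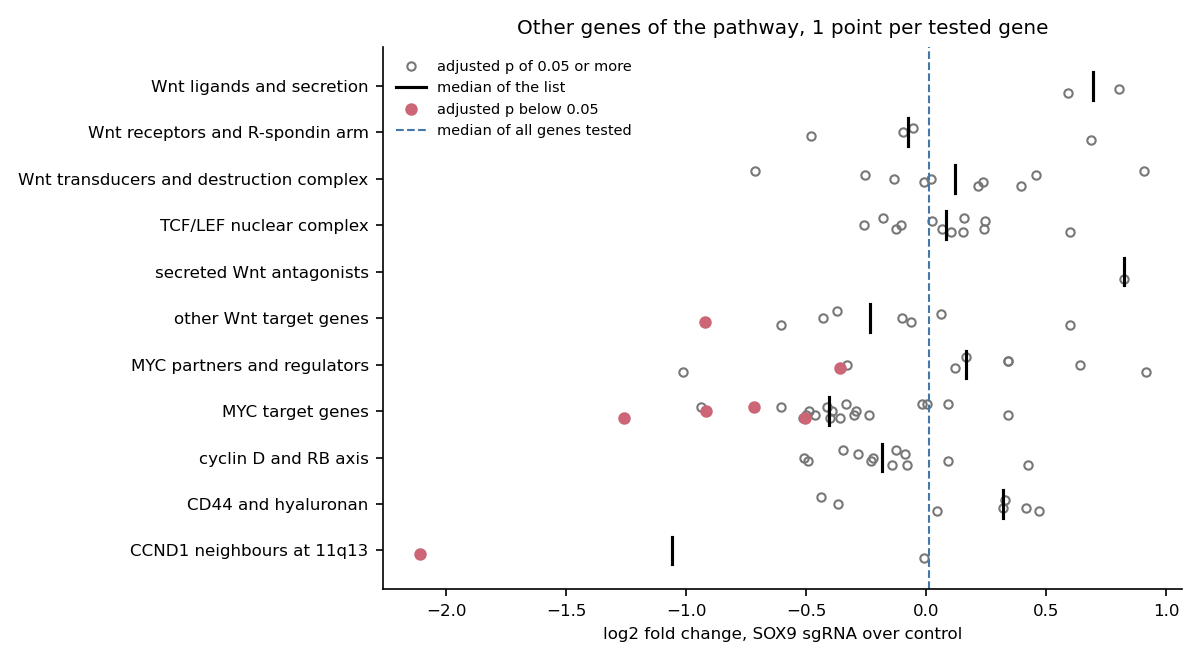
Log2 fold change (horizontal axis, SOX9 sgRNA over control) of each tested gene in the 11 lists of pathway genes, filled where the adjusted p was below 0.05, with each list's median (black bar) and the median of all genes tested (dashed, 0.01). The MYC targets lie mostly to the left, at a median of -0.41, and the 36 tested genes of the 6 Wnt lists lie on both sides, at a median of 0.02.

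Of the partners and regulators of MYC 9 of 18 were tested, with 1 lower and 0 higher, where 6.02% of all genes were lower and 2.99% higher. MXD3, a repressor that competes with MYC for MAX, held 1900 to 1977 control counts and fell by 0.36 (SE 0.065, edgeR adjusted p = 2.77e-05). It shares 1158 bp of exon with PRELID1 on the other strand, whose row held 85 control counts and 82 SOX9 sgRNA counts, and its call was lost with library totals (-0.18). At an unadjusted p below 0.05 there were 3 lower and 0 higher in this list, where 902 and 730 of all 7959 genes were. DESeq2 called 1 lower and 0 higher, where it called 343 and 130 of all 7959 genes. MLXIP gave -1.01 (SE 0.41, edgeR adjusted p = 0.12).

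In the cyclin D and RB axis around CCND1, 12 of 23 genes were tested and edgeR called 0, with 0 at an unadjusted p below 0.05 and 0 with DESeq2. Over all genes tested edgeR called 6.02% lower and 2.99% higher, so that 0 of 12 is near those shares. At an unadjusted p below 0.05, 902 of all 7959 genes were lower and 730 higher, and DESeq2 called 343 lower and 130 higher. E2F5 gave -0.08 (SE 0.12) and CCNE2 -0.28 (SE 0.19). CDK4, the kinase that cyclin D1 activates, gave 0.09 (SE 0.22), and CCND3 -0.15 (SE 0.46) on 39 control and 42 SOX9 sgRNA counts. Of 11 neighbours of CCND1 at 11q13 only PPFIA1 and SHANK2 were tested. PPFIA1 gave -0.01 (SE 0.42). SHANK2, a synaptic scaffold gene, held 13, 15 and 13 control counts and 4, 1 and 6 SOX9 sgRNA counts and fell by 2.11 (SE 0.66, edgeR adjusted p = 0.028), a call lost in 5 of 6 fits without a library.

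In the list around CD44, of hyaluronan enzymes, membrane linkers and splicing factors, 7 of 18 matched genes were tested. Of these edgeR called 0, where 6.02% of all genes were lower and 2.99% higher, so that 0 of 7 is near those shares. At an unadjusted p below 0.05 there were 0 lower and 1 higher, where 902 and 730 of all 7959 genes were. DESeq2 called 0 in this list, where it called 343 of all 7959 genes lower and 130 higher. HAS3, a hyaluronan synthase gene, stayed within its spread at 301 ± 22.2 and 311 ± 18.7 CPM. MSN, which links CD44 to actin, gave 0.33 (SE 0.15, edgeR adjusted p = 0.18).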

How the data were processed

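The 6 libraries (3 control sgRNA, 3 SOX9 sgRNA) come, per the labels' protocols, from column-purified total RNA and a stranded low-input SMARTer kit. The authors deposited whole-number counts per gene without normalization. Per the submitters' processing notes STAR 2.7.10a and featureCounts of Subread 1.6.2 were used on GRCh37 (hg19). Strand setting 1, exons of Ensembl release 75 and counting of a fragment for each gene it overlaps are given per the file headers. Whether strand setting 1 counts the sense strand of this kit is in doubt, since antisense rows mostly exceed the coding rows opposite them. Symbols were found for 38994 of 57209 identifiers. Exon overlaps were computed with bedtools 2.31.1 from the deposited coordinates.

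Tests used edgeR 4.0.16 under R 4.3.3 (filterByExpr defaults, TMM factors, robust quasi-likelihood test over all genes tested, Benjamini-Hochberg, threshold 0.05, no replicate block). CPM is relative to the total over tested genes times the TMM factor. Fold changes carry a prior count of 0.125. DESeq2 1.42.0, library totals without TMM factors, no filter, a filter of 30 counts in 3 libraries, a replicate block and leaving out each library were alternatives. The fit was also run on simulated counts with the same dispersion for every gene and changes only in genes above a set level. That setting is simpler than these data, and its outcome is not reported here. Libraries of 1 group differed by more than counting error (chi-square per degree of freedom 2.00 to 2.61).

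The genes examined, the lists and the tests were chosen with earlier results of these data known. Named besides these genes were, per list, up to 3 calls in each direction with the smallest adjusted p or, with none, up to 2 tested genes with the highest mean CPM, and for MYC and CCND1 the 3 genes most like them. APC2, USP34, KREMEN2, SOX4, JUN, BIRC5, TFRC, NOLC1, HSPD1, MLXIP, CDK4, CCND3, PPFIA1 and EPCAM, ESR1, PGR, ERBB2, KRT5, KRT8 and KRT18 were named outside this rule after their values were seen. Of the listed symbols, CD24 and PECAM1 matched no identifier.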

Additional observations from a re-analysis of the deposited data

How the results depend on the processing

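Among all genes, 238 were higher and 479 lower. With library totals 625 were higher and 249 lower, and the median over all genes went from 0.01 to 0.19 in log2 terms. DESeq2 called 130 higher and 343 lower, and the fit with no filter 151 higher and 423 lower. No library left out moved either count by over 1.5 times. The listed Wnt genes had 1 lower in the reported fit, 0 with library totals, DESeq2, no filter, the stricter filter or the replicate block, and 0 to 2 without 1 library. They had 0 higher in the reported fit, 5 with library totals, 3 with the stricter filter and 0 to 2 without 1 library. The 7 lower rows among the genes examined kept their direction in every fit run. CCND1 lost its call in 1 of 11 further fits, CD44 in 2 and AMER1 in 6 of 10, while MYC, LTO1, CD44-AS1 and SFRP1 kept theirs. The genes were chosen from these same libraries, so that calls kept over refits describe the processing only and carry no test. AMER1 and SFRP1 were not tested under the stricter filter. Deviations of same-numbered libraries correlated by -0.030 to 0.017, so that the counts showed no pairing by replicate number. The labels do not say whether a number is shared between the groups, and these values cannot tell how the samples were prepared. With the replicate block 175 genes were higher and 399 lower, and among the genes examined only AMER1 lost its call. The rows of AXIN2, CTNNB1 and LEF1 had under 40 counts per group, which limits what can be detected. With the strand in doubt these counts cannot be taken as scarce mRNA, and why they are low was not tested.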

Other observations

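The genes whose CPM ran most like MYC over the 6 libraries, among 4336 tested genes whose average log2 CPM was 5 or more, were HIF1AN (Pearson r = 0.994), NCMAP-DT (0.992) and H2AZ1-DT (0.991). HIF1AN encodes an oxygen-dependent hydroxylase that acts on HIF. Its level went from 299 ± 7.83 to 221 ± 17.5 CPM (SD, n = 3 each), and its exons overlap those of NDUFB8 over 325 bp on the other strand. H2AZ1-DT lies opposite H2AZ1, a histone variant gene, over 223 bp and went from 1560 ± 10.4 to 1221 ± 58.7 CPM. NCMAP-DT lies opposite RCAN3.

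For CCND1 they were PTPRK-AS1 (r = 0.998), VIM (0.997) and ENSG00000188206 (0.997), among 4335 genes. PTPRK-AS1 lies opposite PTPRK, a receptor phosphatase gene, over 173 bp and went from 333 ± 15.9 to 194 ± 16.3 CPM. VIM encodes the intermediate filament vimentin and went from 225 ± 18.5 to 72.9 ± 9.03 CPM, and it lies opposite VIM-AS1 over 641 bp and ENSG00000234961 over 619 bp. ENSG00000188206 lies opposite COX20 over 3502 bp. These correlations describe 6 libraries in 2 groups, so that any row with a clear difference between the groups scores high, and they carry no test.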
